A study of Mus musculus with 6 samples.

Results

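Blnk and the kinases and effectors around it at the pre-B cell receptor were compared between BCR-ABL1-driven mouse acute lymphoblastic leukaemia lacking activation-induced cytidine deaminase (AID-/-) and the same kind of leukaemia with the intact gene (AID+/+). The members were all probe sets annotated to exactly 1 of 10 symbols, Blnk, Syk, Btk, Lyn, Blk, Fyn, Plcg2, Vav1, Vav2 and Bank1. This gave 16 of 45037 probe sets tested, for 9 of the 10 genes. No probe set was named for Lyn in the annotation used, and Lyn was not analysed here. Syk had 4 probe sets, Vav2 had 3, Fyn and Vav1 had 2 each, and the other 5 genes had 1 each. Probe sets were short oligonucleotide groups of an Affymetrix array that read mostly the 3' end of a transcript.

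Each group held 3 arrays, titled biological replicates, of leukaemia cells from the Balb/c strain, with no further treatment or age given. The BCR-ABL1 fusion kinase is shared by both groups, per the series title, and the label gives neither how it was introduced nor whether separate animals gave the 3 samples of each group. The p-values therefore measure the spread between these arrays, which may be partly technical. The values are RMA expression levels on the log2 scale, so that 1 unit is a doubling of signal.

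The pre-B cell receptor is an immunoglobulin mu chain paired with a surrogate light chain and the signalling chains CD79A and CD79B. When it is engaged, kinases of the SRC family (LYN, BLK, FYN) phosphorylate the CD79 tails, SYK docks there, and SYK phosphorylates the adaptor BLNK. BLNK then holds BTK, PLCG2 and VAV proteins together, which opens the calcium, RAS and RAC branches of the signal. In mice, loss of Blnk slows pre-B cell maturation and predisposes to pre-B cell leukaemia, and BLNK is regarded as a restraint on transformed pre-B cells.

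Blnk was the only one of the 9 genes that passed the test: it was higher in AID-/- leukaemia, while the kinases Syk, Btk, Blk and Fyn, the phospholipase gene Plcg2, the exchange factor genes Vav1 and Vav2 and the adaptor Bank1 did not pass. Lcp2, the relative of Blnk used mainly by T and myeloid cells, was higher as well. The upstream sequences of these 2 adaptor genes are shown because both adaptors were higher. They are RefSeq sequences of GRCm38.p6, both genes matched, and each gives the 250 bases before the annotated start, 5' to 3' on the gene's strand. For Blnk this is chr19:40994222-40994471 on the minus strand, and for Lcp2 chr11:34046678-34046927 on the plus strand. Capitals mark matches to 5 motifs, searched on both strands.
Blnk: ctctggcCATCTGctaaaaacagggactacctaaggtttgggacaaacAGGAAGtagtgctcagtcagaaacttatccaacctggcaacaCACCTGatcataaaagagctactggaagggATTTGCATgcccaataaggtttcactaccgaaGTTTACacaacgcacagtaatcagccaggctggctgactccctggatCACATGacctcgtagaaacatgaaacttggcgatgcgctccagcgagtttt
Lcp2: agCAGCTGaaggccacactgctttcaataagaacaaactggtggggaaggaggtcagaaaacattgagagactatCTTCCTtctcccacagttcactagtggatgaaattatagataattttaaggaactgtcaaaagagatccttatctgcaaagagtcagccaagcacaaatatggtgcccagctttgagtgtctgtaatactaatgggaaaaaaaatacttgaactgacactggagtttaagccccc
The Blnk window held 1 octamer (ATTTGCAT), the sequence bound by OCT factors, at bases 130 to 123 before the start, and 1.6% of the 32851 windows of this length held one. It also held 1 FOXO-type match (GTAAAC, here on the opposite strand as GTTTAC), 1 ETS-type match (AGGAAG) and 3 E-boxes (CANNTG). At least 1 such match was held by 6.92%, 29.5% and 66.2% of windows, in that order. The Lcp2 window held 1 ETS-type match on the opposite strand and 1 E-box. Neither window held the STAT motif TTCNNNGAA (7.02% of windows). None of these matches overlapped another. They describe letters in the windows and say nothing of binding.

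The arrays differed at many genes besides these. With limma, 6589 of 45037 probe sets passed an adjusted p of 0.05 (Benjamini-Hochberg), which is 14.6%, and 7.24% were higher in AID-/- leukaemia. Pairs of AID-/- arrays had a Pearson's r across probe sets of 0.991 to 0.994, pairs of AID+/+ arrays 0.995 to 0.996, and pairs from both groups 0.972 to 0.977. The genotype labels were not checked against expression here. Xist, the RNA of the inactive X chromosome, was at 4.35 to 6.02 in AID-/- and 11.93 to 12.18 in AID+/+ arrays. The Y-linked Kdm5d was at 7.62 to 7.74 in AID-/- and 2.42 to 2.68 in AID+/+ arrays. Eif2s3y, also Y-linked, was uneven, at 8.85, 3.67 and 2.71 in AID-/- and 2.51 to 2.59 in AID+/+ arrays, and did not pass (limma adjusted p = 0.264). Sex and genotype cannot be told apart. Among the 10 members Btk is the X-linked one.

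Most B-lineage markers were high in both groups: Igll1, part of the surrogate light chain, lay at 12.82 to 13.10 in AID-/- and 13.10 to 13.19 in AID+/+ arrays. Pax5 was the lowest of them, at 8.02, 6.77 and 7.84 in AID-/- and 8.13, 7.74 and 7.88 in AID+/+ arrays. Of the 6 measured markers 0 passed limma's adjusted threshold (0 also at an unadjusted p under 0.05). Their summed signal was 14.77 to 14.82 in AID-/- and 14.66 to 14.84 in AID+/+ arrays, as log2 of the sum. This sum largely follows the brightest markers, such as Igll1, and shows little of Pax5. Of the T cell CD3 genes, Cd3g was at 2.73 to 2.93 in AID-/- and 2.79 to 2.89 in AID+/+ arrays, Cd3d at 4.51 ± 0.05 in AID-/- and 4.63 ± 0.36 in AID+/+ arrays (mean and SD, n = 3 each), and Cd3e at 5.49 to 5.79 in AID-/- and 5.63 to 5.74 in AID+/+ arrays. The groups overlapped at all 3. Lat, listed with the T cell markers, was lower in AID-/- leukaemia by a log2 difference of -2.21 (SE 0.48, limma adjusted p = 0.0149). The summed signal of the 8 T cell markers was 7.94 to 9.00 in AID-/- and 9.68 to 9.84 in AID+/+ arrays. That sum largely follows Lat, the highest of the 8, at 6.03 to 8.30 in AID-/- and 9.27 to 9.46 in AID+/+ arrays. Apart from Lat no T cell marker passed, and the groups also overlapped at Cd247, Cd8a, Cd4 and Themis. Of 4 mature B cell markers 2 were lower, Cr2 and Cd22, with a sum of 7.83 to 10.45 in AID-/- and 11.34 to 11.76 in AID+/+ arrays. Ms4a1 had 9.21, 5.76 and 7.76 in AID-/- arrays, against 9.14, 8.73 and 8.44 in AID+/+ arrays. The groups overlapped there, and Ms4a1 did not pass (limma adjusted p = 0.328). Fcer2a differed by -0.06 and did not pass. That sum largely follows Cd22 and Ms4a1, the brighter of these markers. Of 8 myeloid markers 1, Lyz2, was higher, with a sum of 7.69 to 7.88 in AID-/- and 7.55 to 7.78 in AID+/+ arrays. The rest did not pass and went both ways. Itgam (1.06) and Cd68 (0.03) were above 0, and Csf1r (-0.30), Mpo (-0.41), Cd14 (-0.20), Fcer1g (-0.12) and Elane (-0.12) below. Of 4 NK cell markers 1, Klrd1, was lower, by a log2 difference of -0.87 (SE 0.15, limma adjusted p = 0.00532). Klrd1 was dim, at 2.87 to 3.38 in AID-/- and 3.92 to 4.16 in AID+/+ arrays, below the median of all values, 4.88. Ncr1 (-0.23), Nkg7 (-0.49) and Prf1 (-0.19) did not pass. The sum of the 4 was 5.92 to 6.23 in AID-/- and 6.23 to 6.63 in AID+/+ arrays. The part of these markers in the results below was not tested. In such bulk RNA, fewer cells of a type and less RNA per cell cannot be told apart.

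Of the 16 probe sets, 1 was higher and 0 were lower in AID-/- leukaemia by limma, or 6.25% called against 14.6% of all probe sets. At an unadjusted p under 0.05, 2 were higher and 3 were lower, against 27.4% of all probe sets in both directions. The groups did not overlap at 5 of the 16, against 32.9% of all probe sets. Differences were above 0 at 9 and below 0 at 7, with a median of 0.02 (all probe sets, -0.04). By size, the median absolute difference was 0.20, against 0.15 for all probe sets.

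Blnk had log2 values of 12.33, 12.68 and 12.61 in AID-/- arrays, against 10.42, 10.60 and 10.33 in AID+/+ arrays. Every AID-/- array lay above every AID+/+ array, by at least 1.73, whereas arrays of one group spanned 0.35 (AID-/-) and 0.26 (AID+/+). The difference of 2.09 (SE 0.12) corresponds to a fold of 4.26, with a 95% interval of 3.50 to 5.17, and limma gave an adjusted p of 2.19e-05. With 1 array left out in turn it lay between 2.02 and 2.20. Blnk rests on 1 probe set, so no second probe set of the gene could be set beside it. At the highest, another member reached 0.46 (Blk), and its interval, up to 1.29, did not reach that of Blnk, from 1.81.

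**Figure D1:**
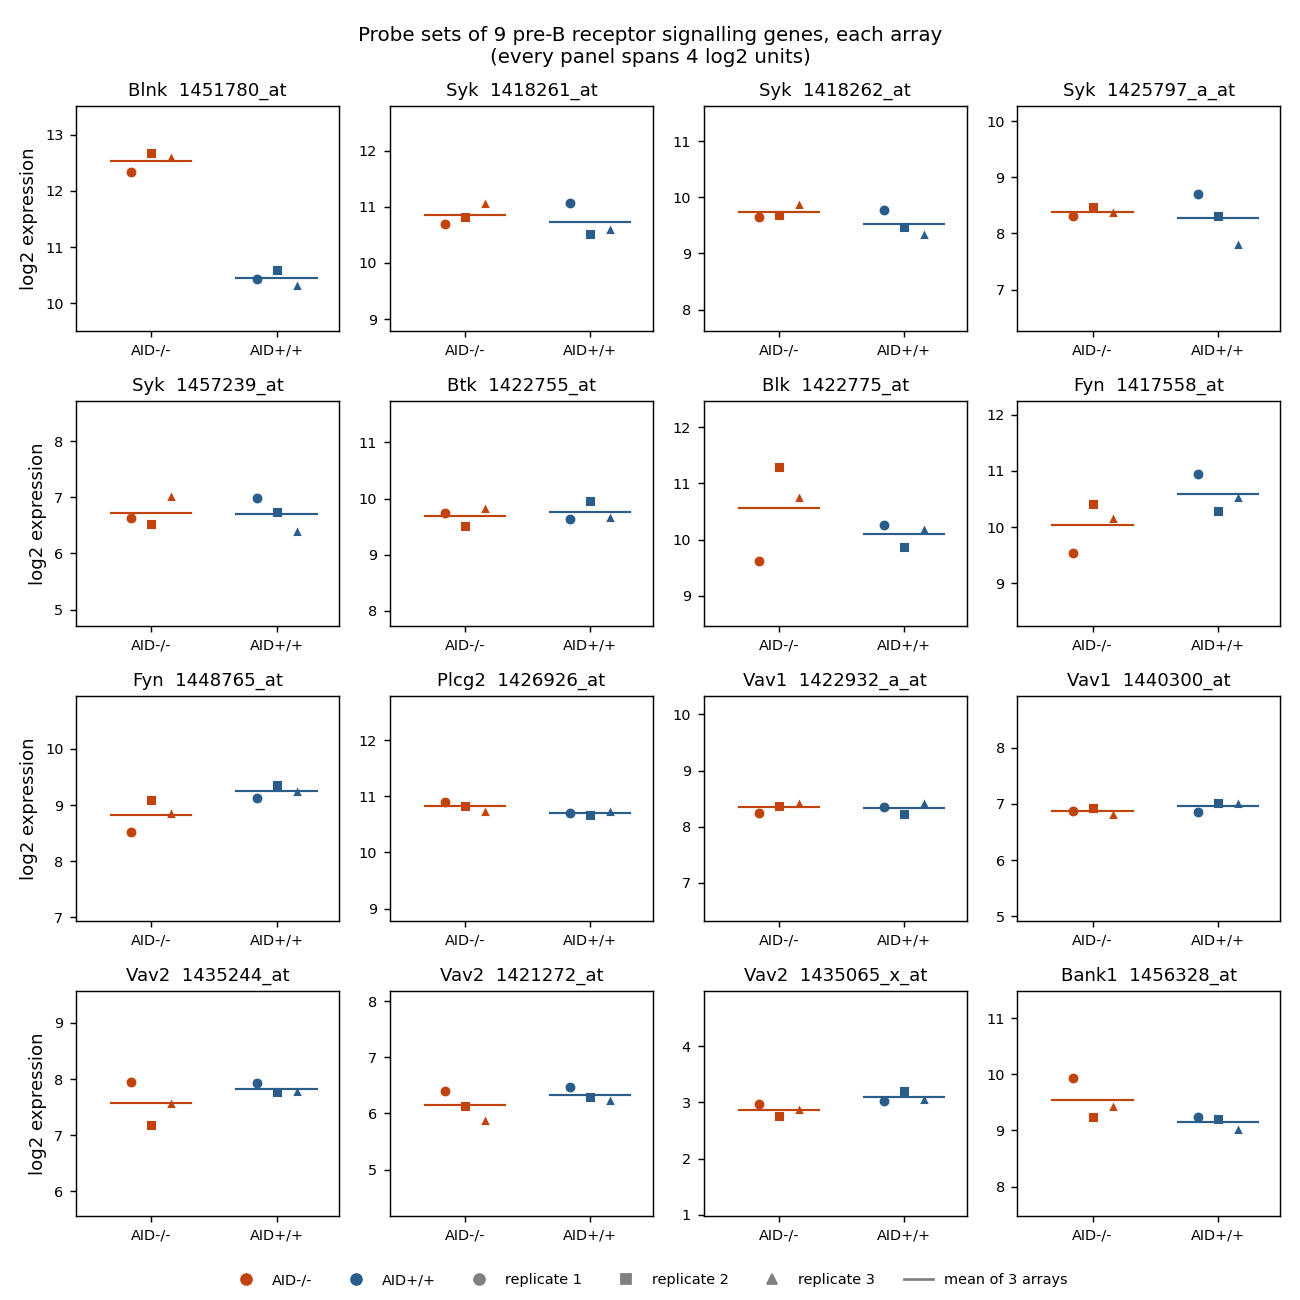
Log2 expression of the 16 probe sets of 9 genes, with AID-/- arrays at the left and AID+/+ arrays at the right of each panel; symbols mark the replicate, lines the mean of 3 arrays, and every panel spans the same height. Blnk (12.33 to 12.68 in AID-/-, 10.33 to 10.60 in AID+/+) stands apart, and Blk is the most scattered among AID-/- arrays (9.63 to 11.30).

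Among the SRC family kinases, which start the signal, Blk had 9.63, 11.30 and 10.76 in AID-/- arrays, against 10.25, 9.87 and 10.19 in AID+/+ arrays. AID-/- replicate 1 lay below all AID+/+ arrays and the other two above them, so the groups overlapped. The SD of 3 arrays was 0.86 for AID-/- and 0.20 for AID+/+ leukaemia. The difference of 0.46 (SE 0.36) did not pass (limma adjusted p = 0.478). Blk depended on 1 array: without AID-/- replicate 1 the difference was 0.93 and passed (limma adjusted p = 0.0151).

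Fyn, another SRC family kinase, had 2 probe sets, both lower in mean in AID-/- leukaemia. The brighter had 9.54, 10.41 and 10.16 in AID-/- arrays, against 10.94, 10.29 and 10.54 in AID+/+ arrays. AID-/- replicate 2 lay within the AID+/+ range. The other had 8.52, 9.10 and 8.87 in AID-/- arrays, against 9.12, 9.36 and 9.25 in AID+/+ arrays, where the groups were apart by 0.02. Their differences of -0.56 (SE 0.24) and -0.42 (SE 0.15) did not pass (limma adjusted p = 0.171 and 0.112), with 95% intervals of -1.10 to -0.02 and -0.76 to -0.07. Without AID-/- replicate 2 the second passed at -0.55 (limma adjusted p = 0.0401). In both Fyn probe sets, as in Blk, AID-/- replicate 1 was the lowest and replicate 2 the highest of their group.

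Syk, the kinase that phosphorylates BLNK, differed little at each of its 4 probe sets. The brightest had 10.69, 10.81 and 11.07 in AID-/- arrays, against 11.06, 10.51 and 10.60 in AID+/+ arrays. The groups overlapped at all 4. Differences were 0.02 to 0.21, the limma adjusted p was 0.357 to 0.963, and the 95% intervals together ran from -0.39 to 0.56. Differences of up to 0.56 lie within these intervals, and the Blnk difference of 2.09 does not.

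Btk, the TEC family kinase that BLNK brings to PLCG2, had 9.75, 9.50 and 9.83 in AID-/- arrays, against 9.64, 9.96 and 9.68 in AID+/+ arrays. The groups overlapped, with a difference of -0.07 (SE 0.13, 95% interval -0.36 to 0.23, limma adjusted p = 0.800). Plcg2, the phospholipase that releases the calcium messenger, had 10.90, 10.83 and 10.73 in AID-/- arrays, against 10.70, 10.66 and 10.73 in AID+/+ arrays. The lowest AID-/- array was 0.001 above the highest AID+/+ array. The difference was 0.13 (SE 0.09, 95% interval -0.08 to 0.33, limma adjusted p = 0.428).

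Vav1 and Vav2 encode exchange factors that switch on RAC GTPases. The brighter Vav1 probe set had 8.25, 8.37 and 8.42 in AID-/- arrays, against 8.35, 8.22 and 8.42 in AID+/+ arrays, and the groups overlapped. Both Vav1 probe sets were near 0, at 0.02 (SE 0.10) and -0.10 (SE 0.09), with limma adjusted p of 0.941 and 0.549. The brightest Vav2 probe set had 7.95, 7.18 and 7.58 in AID-/- arrays, against 7.93, 7.76 and 7.78 in AID+/+ arrays. AID-/- replicate 1 was the highest of the 6 and the other two lay below all AID+/+ arrays. The 3 Vav2 differences were -0.25, -0.19 and -0.23 (limma adjusted p = 0.420, 0.435 and 0.179). The last of these was a probe set of the kind that can bind other transcripts, at 2.76 to 2.96 in AID-/- and 3.02 to 3.20 in AID+/+ arrays, where the scale holds little order.

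Bank1, a B cell scaffold that binds LYN and calcium channels of the endoplasmic reticulum, had 9.94, 9.25 and 9.44 in AID-/- arrays, against 9.23, 9.19 and 9.02 in AID+/+ arrays. The groups were apart by 0.01, and AID-/- replicate 1 was the highest. The difference of 0.39 (SE 0.17, 95% interval 0.00 to 0.78) did not pass (limma adjusted p = 0.182), and without AID-/- replicate 1 it was 0.19. In Bank1 and in the brightest Vav2 probe set AID-/- replicate 1 was the highest and replicate 2 the lowest of their group, the reverse of Blk and Fyn.

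**Figure D2:**
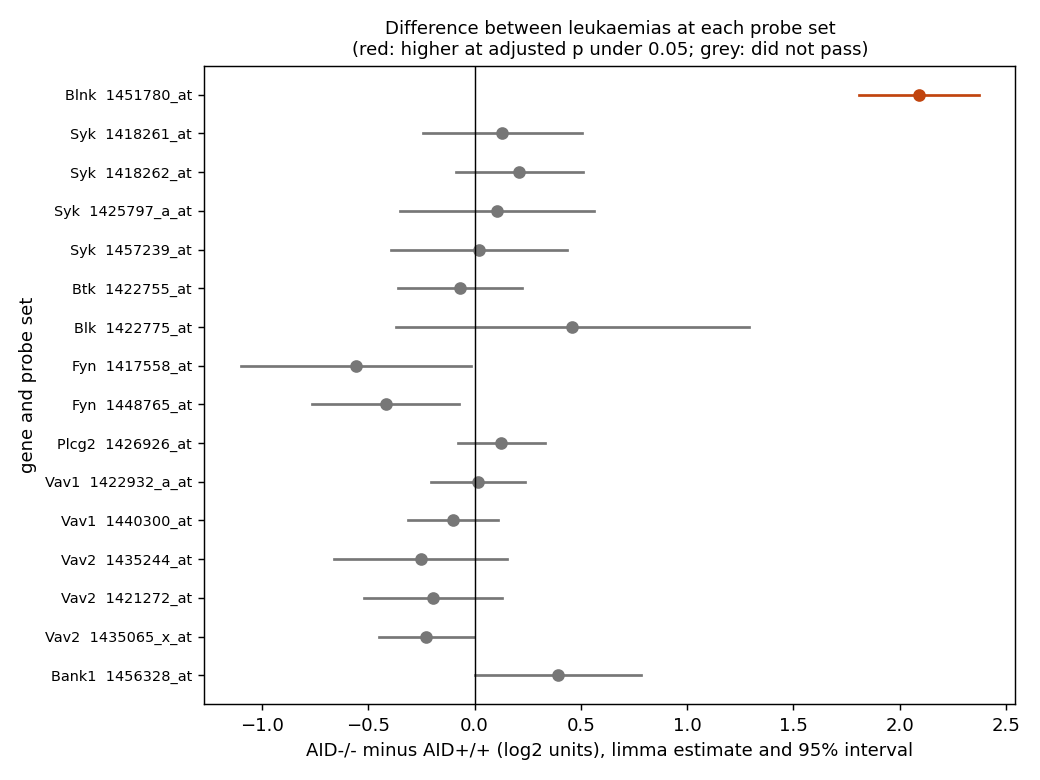
Difference of AID-/- minus AID+/+ leukaemia in log2 units at each of the 16 probe sets, as points with 95% intervals from limma. Blnk, at 2.09, is the point whose interval lies clear of all others; Fyn at -0.56 and -0.42 and Bank1 at 0.39 have intervals that end near 0 and did not pass.

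The genes with a profile most like that of Blnk were Csf1, which encodes a macrophage growth factor, Bmyc, Slc25a53, Ypel2 and Leprotl1. Likeness was the root mean square difference over the 6 arrays after each profile was centred, and it was 0.09 for Csf1, 0.09 for Bmyc, 0.12 for Slc25a53, 0.12 for Ypel2 and 0.14 for Leprotl1. Csf1 had 9.21, 9.57 and 9.28 in AID-/- arrays, against 7.28, 7.43 and 7.29 in AID+/+ arrays. By the same measure the other 8 members were at 0.91 (Bank1) to 1.35 (Fyn). With 2 groups of 3 arrays the measure largely follows the difference between groups. That difference was 2.02 to 2.20 for the 5 named genes, against 2.09 for Blnk, so the likeness adds little to it.

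Genes around these members were read from 4 lists with 1 probe set per gene, the brightest. The lists were chosen with earlier results of these data known. The share over all genes includes dim genes, so it is not a like-for-like measure, and no list was tested as a set. Over all 18193 genes, 10.1% were higher and 8.42% lower, or 18.5% called, with a median difference of -0.03. On the same scale 1 of the 9 members was called, with a median of 0.13.

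Of 14 measured relatives of the members among kinases, phospholipases and adaptors, 1 was higher and 1 lower, and 12 missed the threshold (14.3% called, against 18.5% of all genes, median -0.10). Lcp2, which encodes SLP-76, does for the T cell receptor what BLNK does for the B cell receptor. It had 7.90, 8.60 and 8.25 in AID-/- arrays, against 5.49, 5.36 and 5.94 in AID+/+ arrays, with no overlap. The difference was 2.65 (SE 0.21, a fold of 6.28, limma adjusted p = 0.000133), and its second probe set differed by 0.78 (SE 0.20, limma adjusted p = 0.0362). Pik3ap1, the adaptor BCAP that brings PI3-kinase to the receptor, had 10.34, 9.41 and 10.40 in AID-/- arrays, against 11.01, 11.02 and 10.89 in AID+/+ arrays. It fell by 0.92 (SE 0.24, limma adjusted p = 0.0335). That call was lost without any single AID+/+ array (limma adjusted p up to 0.101), without variance moderation (0.174) and with probe sets averaged (0.0504). Among those that did not pass, Zap70, the T cell relative of Syk, differed by -0.18 (SE 0.09), Tec by -0.23 (SE 0.11), Plcg1 by 0.09 (SE 0.10) and Vav3 by -0.32 (SE 0.17).

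**Figure D3:**
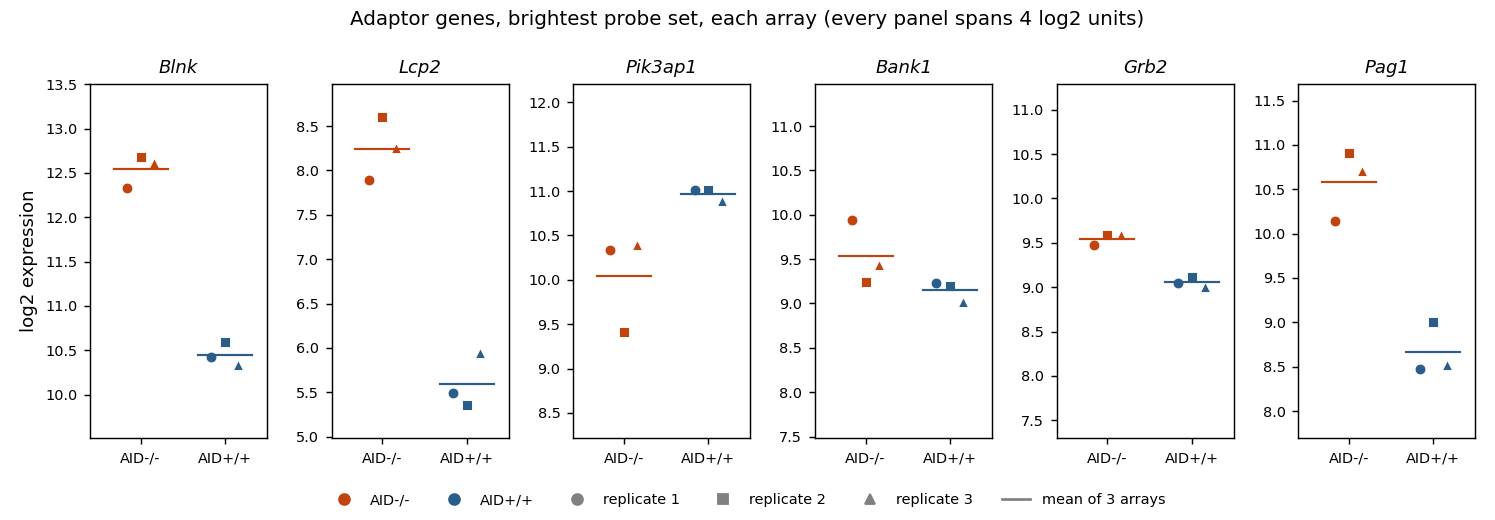
Log2 expression of 6 adaptor genes at their brightest probe set, AID-/- arrays at the left and AID+/+ arrays at the right of each panel; symbols mark the replicate, lines the mean of 3 arrays, and every panel spans the same height. Blnk, Lcp2 and Pag1 are higher in all AID-/- arrays, by 2.09, 2.65 and 1.92 in mean, Grb2 by 0.49 at this probe set, Pik3ap1 is lower by a log2 difference of -0.92, and Bank1, at 0.39, did not pass.

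Among the genes listed as restraints on proximal signalling, 3 of 21 measured were higher and 7 lower, and 11 missed the threshold. That was 47.6% called, against 18.5% of all genes, dim ones included, with a median of -0.23. This list, too, was chosen with earlier results known. Without AID+/+ replicate 1, 4 were lower, without AID+/+ replicate 2, 1 was higher, and without variance moderation 1 was lower. Pag1, the membrane adaptor that brings the kinase CSK to SRC family kinases, had 10.14, 10.90 and 10.70 in AID-/- arrays, against 8.48, 9.00 and 8.52 in AID+/+ arrays. It was higher by 1.92 (SE 0.22, limma adjusted p = 0.000878), and of its 4 probe sets 3 passed. Csk itself differed by -0.08 (SE 0.15) and did not pass. Ubash3a, a suppressor of SYK and ZAP70 signalling best known from T cells, had 5.20, 5.85 and 4.92 in AID-/- arrays, against 7.89, 7.72 and 7.26 in AID+/+ arrays. It fell by 2.30 (SE 0.25, limma adjusted p = 0.000764).

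Cd22, an inhibitory co-receptor phosphorylated by LYN, had 9.59, 7.12 and 8.44 in AID-/- arrays, against 11.42, 11.01 and 11.15 in AID+/+ arrays, a fall of 2.81 on the log2 scale in mean. All AID-/- arrays were lower, and they were spread by 1.23 (SD, n = 3), against 0.21 in AID+/+ leukaemia (SD, n = 3). Ptpn6, the phosphatase that CD22 recruits, fell by 1.06 (SE 0.17), with limma adjusted p of 0.00450 for Ptpn6 and 0.00796 for Cd22. Both calls were lost without variance moderation (adjusted p = 0.0649 for Ptpn6 and 0.0998 for Cd22). A second Ptpn6 probe set differed by -0.73 (SE 0.22) and did not pass (limma adjusted p = 0.0650, over all probe sets). The other 6 called genes of this list were named after their values were seen. They were Fcgr2b (-1.53), Cd72 (-0.84), Ubash3b (-0.67) and Ptprc (-0.37) among the lower, and Dgka (1.40) and Inpp5d (0.51) among the higher. Ptprc was counted by its place in the list and is not a plain restraint. Signalling was not measured, so no difference in this list is read as a restraint lost or gained.

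Receptor chains and the co-receptor held 0 higher and 2 lower genes of 9 measured by limma, while 7 did not pass. That was 22.2% called, near the 18.5% of all genes, with a median of 0.05. At an unadjusted p under 0.05 the counts were also 0 and 2, and without AID-/- replicate 2, 1 was higher. Cr2, a complement receptor of B cells, had 4.83, 4.42 and 4.64 in AID-/- arrays, against 7.23, 6.57 and 6.34 in AID+/+ arrays, a difference of -2.09 (SE 0.22, limma adjusted p = 0.000698). Ighm fell by 0.86 (SE 0.18, limma adjusted p = 0.0120) at its brightest probe set, and a second bright probe set differed by -0.60 (adjusted p = 0.0147), while a dim one was higher by 0.64 (adjusted p = 0.00507), both adjusted over all probe sets. With its 11 probe sets averaged Ighm differed by -0.01 and did not pass (adjusted p = 0.918), nor did the brightest without variance moderation (adjusted p = 0.101). The signalling chains Cd79a and Cd79b, on which SYK docks, differed by 0.23 (SE 0.22) and 0.35 (SE 0.15) and did not pass.

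Effectors downstream of BLNK went both ways: 5 of 33 measured genes were higher and 7 lower, and 21 missed the threshold. That was 36.4% called, against 18.5% of all genes, dim ones included, with a median of 0.00. Without 1 array the lower ones were 1 to 4, the fewest without AID+/+ replicate 3, and the higher ones 3 to 6, the fewest without AID-/- replicate 3. With replicate number as a block 3 were lower, without variance moderation 2 were higher and 2 lower, and with probe sets averaged 3 were higher. Malt1, the paracaspase that links the receptor to NF-kappaB, had 7.98, 7.34 and 7.91 in AID-/- arrays, against 9.25, 9.39 and 9.35 in AID+/+ arrays. It fell by 1.59 (SE 0.17, limma adjusted p = 0.000640), and its other 2 probe sets by 1.60 and 1.40.

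Gab1, a docking adaptor for PI3-kinase, had 6.28, 6.55 and 6.54 in AID-/- arrays, against 5.61, 5.01 and 5.01 in AID+/+ arrays. It was higher by 1.24 (SE 0.17, limma adjusted p = 0.00223), and all its 3 probe sets passed, at 0.72 to 3.12; without variance moderation the brightest did not (adjusted p = 0.0503). Grb2, the adaptor that ties BLNK to SOS and RAS, had 9.47, 9.58 and 9.59 in AID-/- arrays, against 9.05, 9.12 and 9.00 in AID+/+ arrays. That difference of 0.49 (SE 0.08, limma adjusted p = 0.00566) was not shared by its second probe set, at -0.36 (SE 0.27), and with both averaged Grb2 differed by 0.07 and did not pass (adjusted p = 0.820). Themis2, a B cell adaptor that binds GRB2, was higher by 0.48 (SE 0.09, limma adjusted p = 0.00650). The other 8 called effectors, named after their values were seen, were Pik3cd (0.98) and Nck2 (0.58) among the higher, and Sos1 (-0.52), Gab2 (-0.45), Prkcd (-0.43), Map2k1 (-0.40), Sh3bp2 (-0.38) and Pik3ca (-0.36) among the lower.

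**Figure D4:**
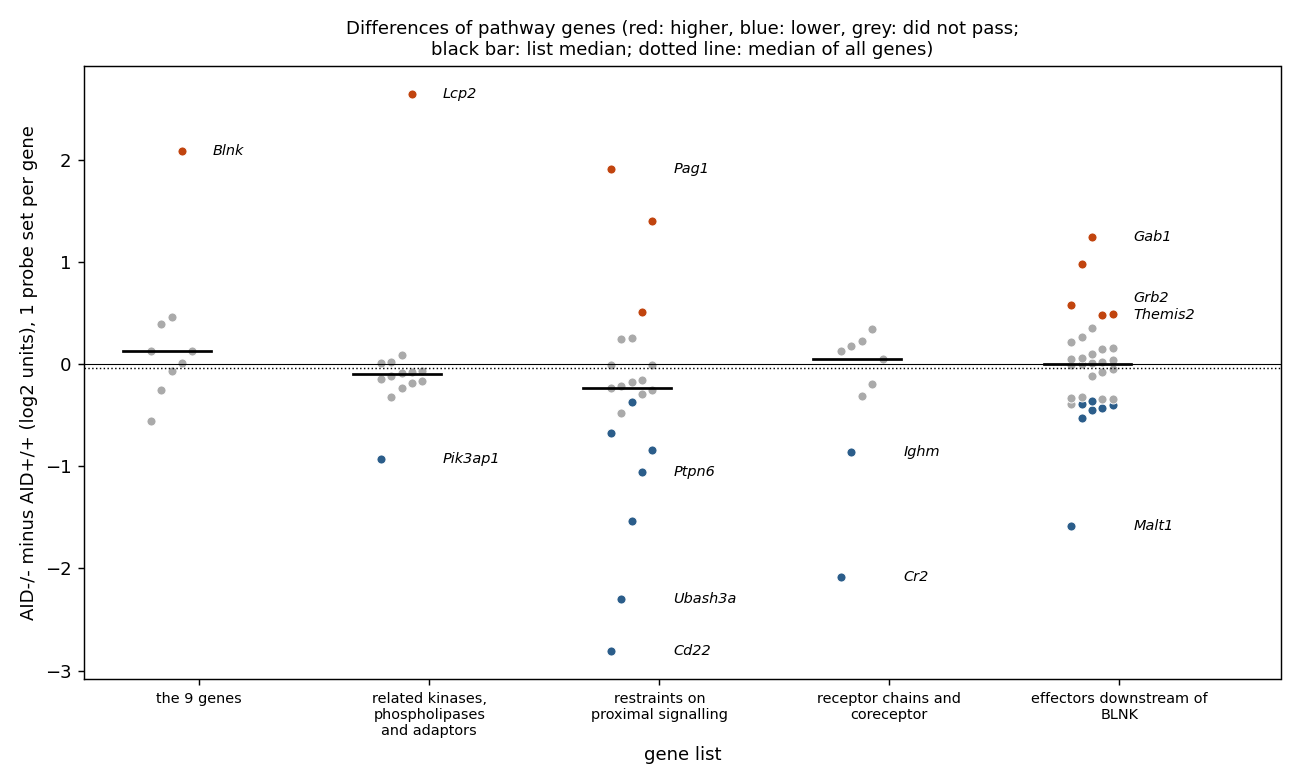
Difference of AID-/- minus AID+/+ leukaemia in log2 units for the 9 genes and 4 lists of their pathway, 1 point per gene at its brightest probe set; red points are higher and blue points lower at an adjusted p under 0.05, and black bars are list medians. Blnk is the called point of the 9, Lcp2 (2.65) and Pag1 (1.92) lie at a similar height, and Cd22 (-2.81), Ubash3a (-2.30) and Cr2 (-2.09) lie lowest.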

How the data were processed

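Expression was read in 6 arrays from total RNA (6 micrograms per sample, biotinylated cRNA), per the labels' protocols. The deposited values are log2 expression levels made with RMA and Partek, per the submitters' processing notes, which give no versions or order of steps. Array medians were 4.85 to 4.90. No detection calls were used, the number of arrays limits the precision, and no scan or slide batch is given in the sources used here.

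The 64 array controls among 45101 probe sets were dropped. The platform annotation gave 34945 probe sets exactly 1 symbol, of which 34741 took the RefSeq name of their Entrez identifier (GRCm38.p6). It gave 932 several symbols, and none of those named a member. Differences (AID-/- minus AID+/+) were fitted over all probe sets with limma 3.58.1 in R 4.3.3 (lmFit, eBayes, group only, two-sided, Benjamini-Hochberg, threshold 0.05). The fit was repeated over 18193 genes at their brightest probe set for the lists. It was tested on simulated data.

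Members and lists were chosen with earlier results of these data known. Named were all members, up to 4 called genes per list with the smallest p, and the 5 genes most like Blnk. Same-numbered replicates did not deviate together (r of -0.05, -0.07 and 0.03), so the numbers were not taken as pairs. Alternatives were quantile normalization, median centring, leaving out dim probe sets, an intensity trend, no moderation, array weights, a replicate block, an adjusted p of 0.01, averaged probe sets and leaving out each array.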

Additional observations from a re-analysis of the deposited data

How the results depend on the processing

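Blnk kept its direction and passed under the 13 alternatives that refitted single probe sets, at 2.02 to 2.20 with adjusted p up to 0.0141 (no moderation). The adjusted p of 0.01 and the averaging are not among these 13. Of the 16 member probe sets 1 to 2 were higher and 0 to 1 lower without 1 array, and at the level of genes 1 to 2 were higher. Some small differences that had not passed turned sign in these fits, with ranges of -0.13 to 0.035 for Btk, -0.12 to 0.32 and -0.14 to 0.16 for the 2 dimmer Syk probe sets and -0.037 to 0.066 for the brighter Vav1 probe set. For the lists, leaving out 1 array gave 0 to 1 lower relatives, 1 to 3 higher and 4 to 6 lower restraints, 0 to 1 higher receptor chains, and 3 to 6 higher and 1 to 4 lower effectors. Without moderation 0 relatives, 1 restraint, 1 receptor chain and 2 effectors were lower, and 2 effectors were higher. At an adjusted p of 0.01, 0 relatives, 4 restraints, 1 receptor chain and 1 effector were lower, and 1 restraint and 3 effectors were higher. With the replicate block 3 effectors were lower in place of 7, and the block changed no call on a member or on the up to 4 genes per list with the smallest p. With probe sets averaged 2 relatives and 1 receptor chain were lower and 3 effectors higher. The cause of these changes was not tested, apart from the fewer arrays, the stricter threshold and the averaging themselves. With the dim probe sets left out the Vav2 probe set near the lower end was not fitted. Background correction could not be varied without scanner files. The depth of signal over background is unknown, so values near 3 hold little order.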
